A study of Homo sapiens with 6 samples.

Results

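The genes described here encode the machinery that starts and releases RNA polymerase II (RNAPII). They are 52 of the 57773 genes of the deposited table and were chosen by name, with earlier results of these data known. They comprise the TFII-I family (3 genes), factors of RNAPII pausing and elongation (20 genes), the general transcription factors (17 genes), Mediator (10 genes) and the polymerase subunits POLR2A and POLR2B. All 52 had enough reads for testing. RNA was sequenced from cultures of HepG2, a human hepatocellular carcinoma line, after 3 h with recombinant human TGFβ1 at 5 ng/mL (3 cultures) or with an equal volume of its vehicle (3 cultures). The cells of both groups were below passage 20, were plated overnight before treatment and, by the study's methods, were treated in medium without serum. Each culture is a sample of 1 cell line, so the errors below describe cultures and not people, and RNA of pooled cells cannot tell fewer expressing cells from less RNA per cell.

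RNAPII assembles at promoters with TFIID, TFIIA, TFIIB, TFIIE, TFIIF and TFIIH, and Mediator carries signals from bound activators to it. Soon after initiation the polymerase is held by DSIF and NELF, and the kinase P-TEFb releases it by phosphorylating DSIF, NELF and serine 2 of the polymerase tail. P-TEFb is kept inactive in the 7SK particle, or is carried to genes by the super elongation complex. TFII-I, encoded by GTF2I, binds the initiator element of promoters, and the study asked how it and the pausing factors act on genes that respond to TGFβ. The comparison therefore asks whether the RNA of these factors itself differed after 3 h of TGFβ.

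The 6 libraries held from 60815385 to 100099136 reads assigned to genes. Levels are given as CPM, the reads of a gene scaled to a common library size after TMM normalization, and levels of different genes are compared only as CPM per kilobase of the gene length in the deposited table. TGFβ was compared with vehicle by edgeR's quasi-likelihood test, with the false discovery rate (FDR) computed over 22747 genes and a threshold of 0.05. The cultures of the 2 groups with the same number deviated together. The value with the replicate number as a block is therefore given wherever it changes a call among the 52 genes. Markers of hepatocytes, from TTR to ALB, lay between 28.6 and 17230 CPM. TTR was lower with the block (log2 fold change -0.25, FDR 0.0495) and not called without it (FDR 0.80). The leukocyte gene PTPRC had a level of 0 CPM in 5 of the 6 cultures and 1 read in the other. Of the genes fixed for other cell types, PTPRC, COL1A2 and DES stayed at or below 0.068 CPM. The endothelial gene PECAM1 was not found by that name among the deposited genes and could not be checked. The collagen gene COL1A1 lay between 5.35 and 9.88 CPM with vehicle and between 10.5 and 12.3 CPM with TGFβ (FDR 0.193, and 0.00806 with the block), and its part in the results below was not tested. The known TGFβ target SKIL had a level of 22.1 to 24.4 CPM with vehicle and of 107 to 141 CPM with TGFβ.

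Most of the machinery differed little between the groups. TAF4 was the single member that rose, and ELL2 was the single member that fell. This is 1.92% of the 52 members in each direction, beside 3.11% of all tested genes that were higher and 1.01% that were lower. With the block, 4 members (7.69%) were higher and 2 (3.85%) were lower, beside 8.08% and 3.75% of all tested genes. These shares lie near those of all genes, so they do not set the machinery apart. The 6 members called with the block were TAF4, GTF2IRD1, HEXIM1, GTF2I, AFF1 and ELL2. For 6 members, all TGFβ cultures lay above all vehicle cultures (11.5%, beside 10.4% of all tested genes), and for 6 others they lay below (11.5%, beside 8.23%). For 3 cultures against 3, an exact permutation test (two-sided) cannot give a P below 0.1.

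**Figure D1:**
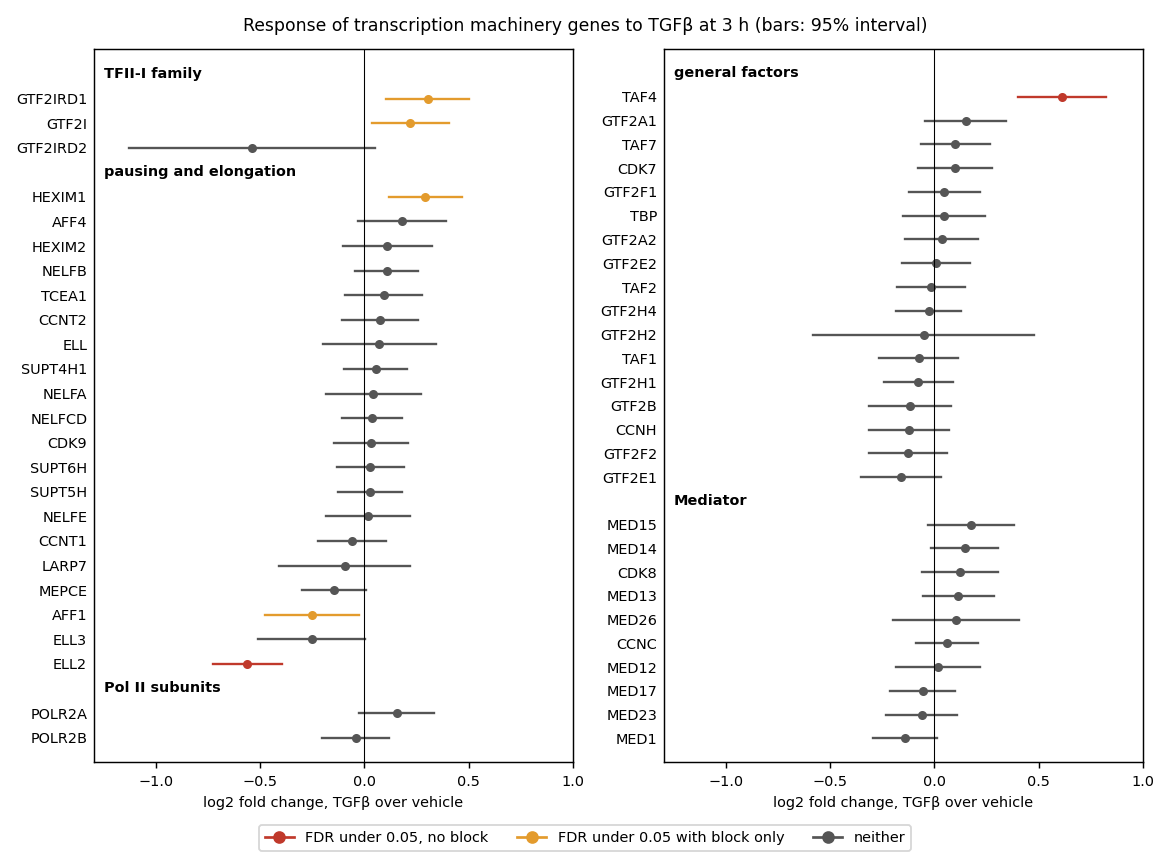
Log2 fold change of TGFβ over vehicle for each of the 52 genes, by class, with the 95% interval of the fit without a block (bars; n = 3 cultures per group). Points in red passed an FDR of 0.05 without a block, points in orange passed it only with the replicate block, and gray points passed neither. TAF4 at 0.61 and ELL2 at -0.56 stand outside the range of most other genes, and GTF2IRD2 and GTF2H2, which have the fewest reads, carry the widest bars.

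The fold changes of most of these genes had narrow intervals. The 95% interval of the log2 fold change lay within ±0.5 (less than a 1.41-fold change either way) for 46 of the 52 members (88.5%), beside 46.0% of all tested genes, many of which have fewer reads. The exceptions among the members were TAF4, ELL2, GTF2IRD1, ELL3, GTF2IRD2 and GTF2H2. Of the 15899 tested genes with a mean of at least 1 CPM, 10448 had an interval within ±0.5. The median log2 fold change of the members was 0.03 and that of all tested genes was -0.0054. The fold change was under 0.2 in size on the log2 scale for 44 members. This held for 14077 of the 22747 tested genes, and for 11435 of the 15899 with a mean of at least 1 CPM. Cultures of a group varied by a median of 5.32% (vehicle) and 6.25% (TGFβ) of the mean over the members, and by 8.67% and 8.57% over all tested genes with a mean of at least 1 CPM.

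The promoters of the members were searched in RefSeq sequences of GRCh38.p14 in windows of 300 bases around the start, which were matched for 44 of the 52 genes. GTF2I and ELL2 were among those without an entry. The search used the core SMAD motif GTCTG, the E-box CACGTG and the TATA motif TATAAA, each on both strands, and the initiator consensus on the coding strand with its A within 25 bases of the start. The initiator consensus was read as a pair of pyrimidines, an A, any base, an A or T, and another pair of pyrimidines. Core SMAD motifs were found in 19 of the 44 promoters (43.2%, beside 45.3% of 35116 RefSeq promoters), initiators in 11 (25%, beside 26.6%), E-boxes in 7 (15.9%, beside 7.26%) and TATA motifs in 2 (4.54%, beside 11.5%). The promoter of TAF4 is shown because TAF4 was called without a block. That of HEXIM1, which was higher with the block, was added after its values were seen. That of HEXIM1 lies at chr17:45148225-45148524 on the plus strand and holds the TATA motif, in capitals, with its first base 29 bases before the start. That of TAF4 lies at chr20:62065832-62066131 on the minus strand, has a GC content of 85.0% against 62.0% for HEXIM1, and holds none of the motifs searched. This is not particular to TAF4, since the promoters of NELFA, SUPT5H, CDK9, TBP and POLR2A, among others, also hold none.
HEXIM1: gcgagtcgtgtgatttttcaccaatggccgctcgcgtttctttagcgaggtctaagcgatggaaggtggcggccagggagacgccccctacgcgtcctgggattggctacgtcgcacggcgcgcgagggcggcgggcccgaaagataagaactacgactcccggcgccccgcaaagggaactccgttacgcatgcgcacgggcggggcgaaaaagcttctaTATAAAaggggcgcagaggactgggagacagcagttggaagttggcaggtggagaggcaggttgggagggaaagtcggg
TAF4: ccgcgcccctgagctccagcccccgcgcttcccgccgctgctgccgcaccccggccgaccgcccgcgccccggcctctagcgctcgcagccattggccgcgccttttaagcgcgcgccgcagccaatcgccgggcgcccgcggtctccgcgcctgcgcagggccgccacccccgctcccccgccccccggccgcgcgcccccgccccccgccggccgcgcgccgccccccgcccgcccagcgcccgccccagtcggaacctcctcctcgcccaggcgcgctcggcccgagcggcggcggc

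TFII-I and its relatives were examined first, since TFII-I is the factor under study. GTF2I (ENSG00000077809) lies on chromosome 7 from 74071994 to 74175026 in hg19. Its level was 188.5, 193 and 171 CPM in vehicle cultures 1 to 3 and 230.2, 216.5 and 198 CPM in TGFβ cultures 1 to 3. The groups did not overlap, although TGFβ culture 3 lay only just above vehicle culture 2. The means were 184 ± 11.6 CPM and 215 ± 16.2 CPM (SD, n = 3), a log2 fold change of 0.22 (standard error 0.08, 95% interval 0.037 to 0.40), which missed the threshold (FDR 0.239). With the block it passed (log2 fold change 0.22, standard error 0.05, FDR 0.0125), and the log2 ratios within culture numbers were 0.29, 0.16 and 0.21. The fold change without the block was 1.17 (95% interval 1.03 to 1.32, not adjusted for the number of genes tested). GTF2I was called only with the block. Reads of AC083884.8, which overlaps GTF2I, amounted to 11.5% of the reads of GTF2I and had a log2 fold change of -0.02 (FDR 0.959).

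GTF2IRD1 (ENSG00000006704) encodes a related protein with the same kind of repeated DNA-binding domain and lies next to GTF2I on chromosome 7, from 73868120 to 74016931. It measured 35.7, 30.5 and 33.6 CPM with vehicle and 44.8, 39.3 and 38.99 CPM with TGFβ. The groups did not overlap. The log2 fold change was 0.30 (standard error 0.09, FDR 0.114), and with the block GTF2IRD1 rose (log2 fold change 0.30, standard error 0.06, FDR 0.00449), by 0.33, 0.36 and 0.21 within culture numbers. GTF2IRD1P1, a pseudogene of it elsewhere on the chromosome, had read counts of 879, 707 and 608 without TGFβ and of 1549, 1164 and 998 with it, and it rose without a block as well (log2 fold change 0.64, standard error 0.11, FDR 0.0098). Of the 630 51-base windows in annotated transcripts of GTF2IRD1P1, 0.794% are found without a mismatch in transcripts of GTF2IRD1. These windows do not cover the 2706 bases of the deposited gene, so how many of its reads match both is not known.

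GTF2IRD2 was barely expressed. Its read counts were 38, 36 and 33 without TGFβ and 30, 30 and 20 with it. Every TGFβ culture was below every vehicle culture after scaling (0.310, 0.373 and 0.274 CPM against 0.430, 0.434 and 0.536 CPM), but the difference was not called (log2 fold change -0.54, 95% interval -1.13 to 0.052, FDR 0.436). Of its 51-base windows, 59.4% also occur in GTF2IRD2B, which had 485 reads over the 6 cultures against 187 for GTF2IRD2, so the split of reads between these copies is uncertain. STAG3L2, whose span holds all of GTF2IRD2, had 457 reads. Per kilobase, GTF2I was at 17.7 ± 1.11 CPM with vehicle, GTF2IRD1 at 5.12 ± 0.396 and GTF2IRD2 at 0.0646 ± 0.00827 (SD, n = 3), an order in which all neighbors were further apart than their spread.

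**Figure D2:**
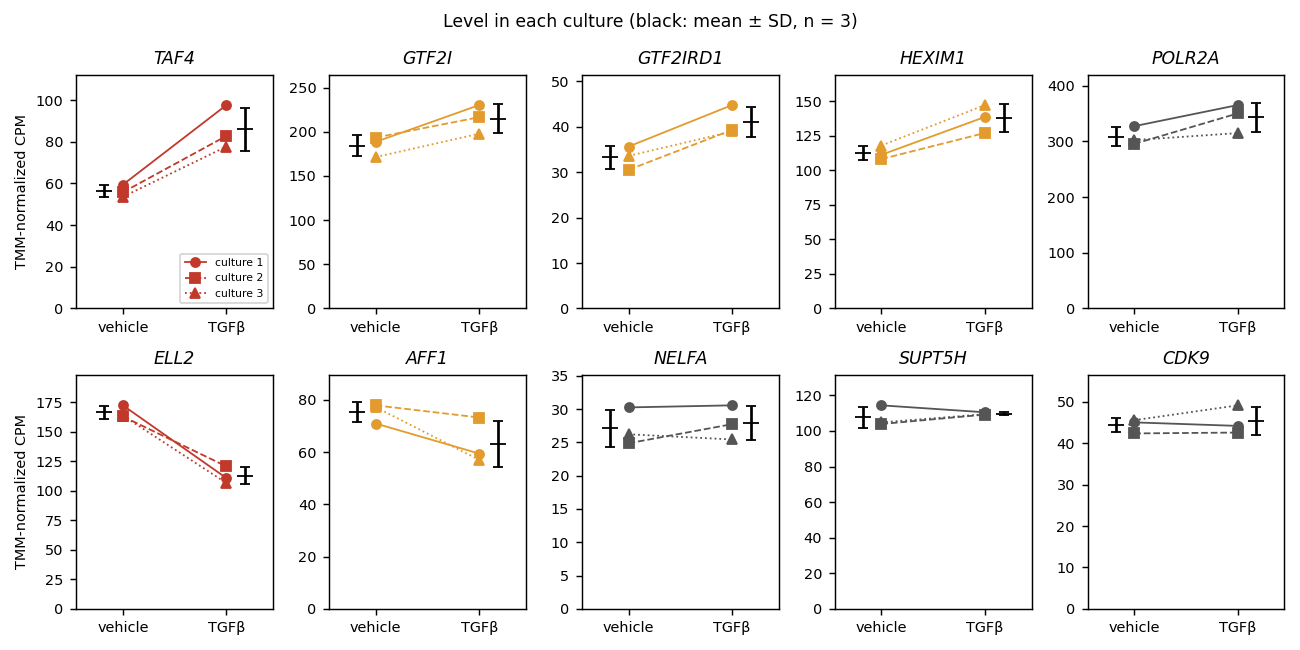
TMM-normalized CPM of 10 genes in each culture, with lines joining the vehicle and TGFβ cultures of the same number and the mean ± SD of each group (n = 3) in black beside them; every axis starts at 0. All TGFβ cultures lie above all vehicle cultures for TAF4, GTF2I, GTF2IRD1 and HEXIM1 and below them for ELL2, while the groups overlap for POLR2A, AFF1, NELFA, SUPT5H and CDK9.

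Among the 20 pausing and elongation factors, 0 were higher and 1 was lower without a block, and 1 was higher and 2 were lower with it (at an unadjusted P under 0.05 there were 3, and DESeq2 called 1 higher). Over all tested genes 3.11% were higher and 1.01% lower without the block, 8.08% and 3.75% with it. Of all 22747 tested genes, 3107 had an unadjusted P under 0.05, and DESeq2 called 1009 higher. NELF, a complex of 4 proteins, holds the polymerase near the promoter. NELFA (ENSG00000185049, chromosome 4 from 1984441 to 2043630) encodes its subunit NELF-A. It measured 30.3, 24.9 and 26.2 CPM with vehicle and 30.6, 27.8 and 25.4 CPM with TGFβ, so the groups lay on top of each other. Its log2 fold change was 0.04 (95% interval -0.18 to 0.27, FDR 0.919). NELFB, NELFCD and NELFE, the other subunits, had log2 fold changes of 0.11, 0.03 and 0.02 (FDR between 0.608 and 0.962). All TGFβ cultures were above all vehicle cultures for NELFB, and the groups overlapped for NELFCD and NELFE. Per kilobase, NELFCD was at 33.9 ± 0.423 CPM with vehicle, NELFB at 30.5 ± 1.26, NELFE at 25.7 ± 2.98 and NELFA at 4.57 ± 0.472 (SD, n = 3). Neighbors in this order were further apart than their SDs, and NELFA was far below the other subunits. The length used covers all annotated exons, so a gene with long rarely used exons is placed too low.

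DSIF binds the polymerase in both the paused and the elongating state. Its large subunit SPT5 is encoded by SUPT5H (ENSG00000196235, chromosome 19 from 39926796 to 39967310). SUPT5H had a level of 114, 104 and 105 CPM with vehicle and 111, 109 and 109 CPM with TGFβ, which gave a log2 fold change of 0.03 (95% interval -0.13 to 0.18, FDR 0.924). All TGFβ cultures fell inside the range of the vehicle cultures. SUPT4H1, the small subunit, had a log2 fold change of 0.05 (FDR 0.834), and the elongation factor gene SUPT6H one of 0.03 (FDR 0.925). SUPT4H1 overlaps RNF43, which fell by 0.44 on the log2 scale (FDR 0.00486), so reads of their shared stretch cannot be assigned. BZRAP1-AS1, whose span holds all of SUPT4H1, had 35.5% as many reads (log2 fold change -0.18, FDR 0.512). TCEA1 encodes TFIIS, which restarts arrested polymerase, and had a log2 fold change of 0.09 (FDR 0.751).

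P-TEFb consists of the kinase CDK9 and cyclin T1 or T2. CDK9 (ENSG00000136807, chromosome 9 from 130547958 to 130553066), the target of the inhibitor flavopiridol, measured 45.1, 42.4 and 45.6 CPM with vehicle and 44.2, 42.6 and 49.2 CPM with TGFβ. These groups overlapped (log2 fold change 0.03, 95% interval -0.15 to 0.21, FDR 0.922). The cyclin genes CCNT1 and CCNT2 had log2 fold changes of -0.06 (FDR 0.826) and 0.07 (FDR 0.804). Per kilobase of RNA with vehicle, CDK9 was at 14.8 ± 0.569 CPM, CCNT1 at 6.71 ± 0.388 and CCNT2 at 6.55 ± 0.292 (SD, n = 3). The cyclins differed from each other by less than their spread, and both were below CDK9.

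HEXIM1 is the protein of the 7SK particle that inhibits P-TEFb, and its gene is known to respond when P-TEFb is released. HEXIM1 (ENSG00000186834, chromosome 17 from 43224684 to 43229468) was at 111, 108 and 118 CPM with vehicle and at 139, 127 and 147 CPM with TGFβ, without overlap. The means were 112 ± 5.03 CPM and 138 ± 10.1 CPM (SD, n = 3). The log2 fold change was 0.29 (standard error 0.08, 95% interval 0.12 to 0.47), with an FDR of 0.0779 without the block and of 0.00223 with it. The log2 ratios within culture numbers were 0.32, 0.23 and 0.32. The TATA motif of the HEXIM1 promoter, shown above, was also found in that of GTF2B, which was not called (log2 fold change -0.12, FDR 0.680). AC002117.1 overlaps the end of HEXIM1 and held 8.16% as many reads, with a log2 fold change of 0.74 (FDR 0.195). HEXIM2, a paralog with the same function, had a log2 fold change of 0.11 (FDR 0.742). AC002117.1 and RP13-890H12.2 overlap the ends of HEXIM2 and held 47.4% and 76.8% as many reads, so the count of HEXIM2 is uncertain. The other proteins of the particle are LARP7, which binds 7SK RNA, and MEPCE, which caps it. LARP7 varied more among vehicle cultures (30.5, 39.9 and 47.5 CPM) than between groups (log2 fold change -0.09, FDR 0.863). All TGFβ cultures lay below all vehicle cultures for MEPCE, which was not called (log2 fold change -0.14, 95% interval -0.30 to 0.0078, FDR 0.405).

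The super elongation complex joins P-TEFb to the scaffold proteins AFF1 or AFF4 and to an ELL protein, which raises the rate of elongation. ELL2 (ENSG00000118985, chromosome 5 from 95220802 to 95297775) fell. It measured 172, 163 and 164 CPM with vehicle and 111, 121 and 106 CPM with TGFβ, so that the highest TGFβ culture was well below the lowest vehicle culture. Its mean went from 166 ± 5.22 CPM to 113 ± 7.27 CPM (SD, n = 3), a log2 fold change of -0.56 (standard error 0.07, 95% interval -0.73 to -0.40, FDR 0.00221), or a level 0.677 times that of vehicle. The log2 ratios within culture numbers were -0.64, -0.43 and -0.62. ELL2P1, a processed copy on chromosome 1 that shares 23.1% of its 51-base windows with ELL2, held 4.10% as many reads as ELL2. Its read counts were 467, 657 and 526 without TGFβ and 269, 384 and 444 with it, which gave a log2 fold change of -0.68 (FDR 0.295, and 0.00174 with the block).

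The paralogs of ELL2 were expressed at much lower levels. Per kilobase with vehicle, ELL2 was at 22.9 ± 0.72 CPM, ELL3 at 2.67 ± 0.185 and ELL at 2.25 ± 0.15 (SD, n = 3). ELL had a log2 fold change of 0.07 (95% interval -0.20 to 0.34, FDR 0.882). ELL3 had one of -0.25 (95% interval -0.51 to 0.002, FDR 0.373), with all TGFβ cultures below all vehicle cultures. RP11-296A16.1, which overlaps most of the span of ELL3, held 109.6% as many reads (log2 fold change -0.19, FDR 0.623). PDIA3 and SERF2, which hold far more reads, overlap the ends of ELL3, so the count of ELL3 is uncertain. AFF1 (ENSG00000172493, chromosome 4 from 87856154 to 88062206) was at 71.0, 78.0 and 77.2 CPM with vehicle and at 59.5, 73.3 and 57.04 CPM with TGFβ. The groups overlapped, since TGFβ culture 2 was above vehicle culture 1, but TGFβ was lower within each culture number (log2 ratios -0.26, -0.09 and -0.44). AFF1 was called lower with the block (log2 fold change -0.26, standard error 0.07, FDR 0.0244) and not without it (FDR 0.282). AFF4, the other scaffold gene, had a log2 fold change of 0.18 (95% interval -0.03 to 0.39, FDR 0.479), and its sign was not the same in all culture numbers (0.26, 0.30 and -0.04).

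**Figure D3:**
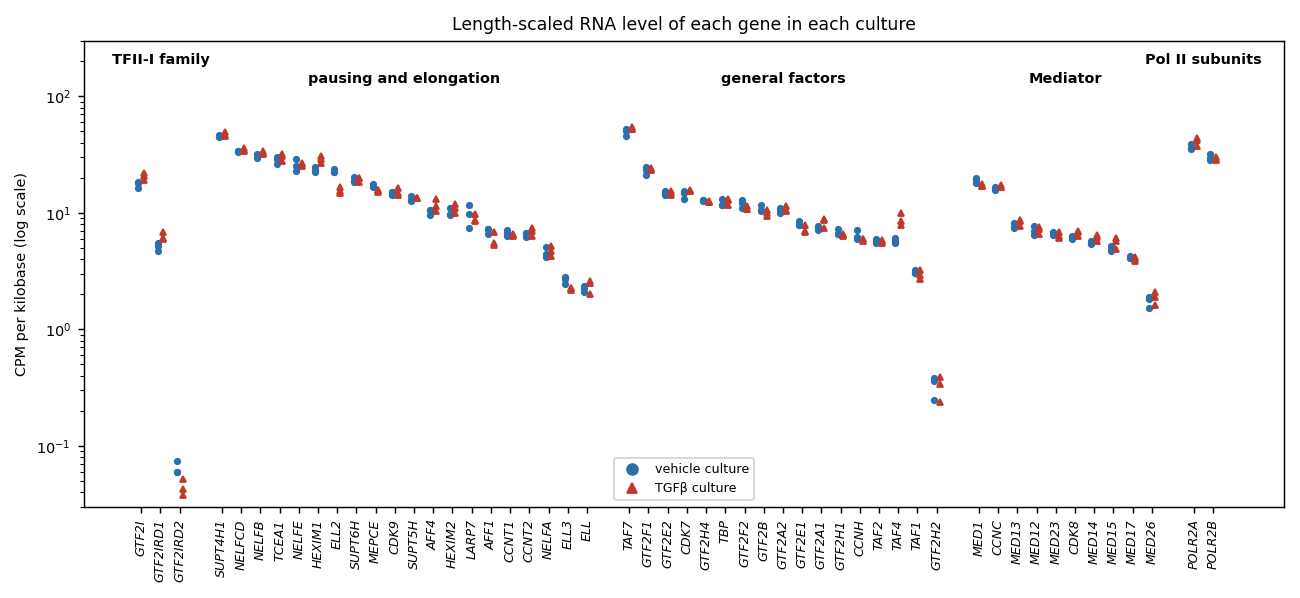
CPM per kilobase of gene length (log scale) of each of the 52 genes in each vehicle culture (blue circles) and TGFβ culture (red triangles), ordered by level within each class. The genes span from 0.0646 (GTF2IRD2) to 49.6 (TAF7) in the vehicle mean, and the groups part visibly for few genes, among them ELL2 and TAF4.

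Of the 17 general factors, TAF4 rose (5.88% of the class, beside 3.11% of all tested genes without the block and 8.08% with it) and 0 fell (beside 1.01% and 3.75%). TAF4 is a core subunit of TFIID, the complex that binds the promoter and carries TBP. TAF4 (ENSG00000130699) is transcribed from the minus strand, between 60528525 and 60640866 of chromosome 20 in hg19. It had a level of 59.4, 55.8 and 53.6 CPM with vehicle and of 97.7, 82.8 and 77.7 CPM with TGFβ. The lowest TGFβ culture was well above the highest vehicle culture, and TGFβ culture 1 was the highest of all. The mean rose from 56.3 ± 2.95 CPM to 86.1 ± 10.3 CPM (SD, n = 3), 1.53-fold (95% interval 1.32 to 1.77). On the log2 scale the change was 0.61 (standard error 0.09, FDR 0.00543), and 0.72, 0.57 and 0.54 within culture numbers. The TAF4 promoter is the one shown above without any of the motifs. No gene overlapping TAF4 held more than 18 reads over the 6 cultures.

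The other TFIID genes did not pass. TBP, which bends the promoter DNA, had a log2 fold change of 0.05 (95% interval -0.15 to 0.24, FDR 0.895). TAF1, the largest subunit, had one of -0.08, TAF2 one of -0.02 and TAF7 one of 0.10 (FDR between 0.678 and 0.957). For TAF4B, a paralog of TAF4 outside the 52 genes, the log2 fold change was -0.49 (standard error 0.15, FDR 0.144), and TAF4B was lower with the block (FDR 0.0345). Per kilobase with vehicle, TAF7 was at 49.6 ± 3.36 CPM, TBP at 12.2 ± 0.89, TAF2 at 5.76 ± 0.233, TAF4 at 5.74 ± 0.300 and TAF1 at 3.12 ± 0.124 (SD, n = 3). TAF2 and TAF4 differed by less than their spread in vehicle cultures. With TGFβ, TAF4 was at 8.78 ± 1.06 CPM per kilobase.

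TFIIA steadies TBP on DNA, and its genes GTF2A1 and GTF2A2 had log2 fold changes of 0.15 (FDR 0.548) and 0.03 (FDR 0.914). GTF2B, whose product recruits the polymerase to TFIID, had one of -0.12 (FDR 0.680). The TFIIE genes GTF2E1 and GTF2E2 had -0.16 (FDR 0.490) and 0.0063 (FDR 0.984), and the TFIIF genes GTF2F1 and GTF2F2 had 0.05 (FDR 0.872) and -0.13 (FDR 0.615). GTF2E1 was lower within all 3 culture numbers, and its groups overlapped. TFIIH opens the DNA and carries the kinase CDK7 with cyclin H. CDK7 had a log2 fold change of 0.10 (FDR 0.720). CCNH, which encodes cyclin H, had one of -0.12 (FDR 0.645), with all TGFβ cultures below all vehicle cultures. GTF2H1 and GTF2H4 had -0.08 (FDR 0.768) and -0.03 (FDR 0.921). GTF2H2 had only 98 to 208 reads per culture and a log2 fold change of -0.05 with a wide interval (-0.58 to 0.48). Of its 51-base windows, 58.5% occur in GTF2H2C, which held 2948 reads against 1025 for GTF2H2. All TGFβ cultures lay below all vehicle cultures for GTF2H2C (log2 fold change -0.39, FDR 0.183, and 0.043 with the block). The level and the change of GTF2H2 are therefore uncertain.

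Of the 10 Mediator genes, 0 passed in either direction with edgeR, with or without the block, and 0 with DESeq2 or limma-voom. None had an unadjusted P under 0.05 (0 of 10), beside 3107 of 22747 tested genes. Over all tested genes 3.11% were higher and 1.01% lower without the block, and 8.08% and 3.75% with it. In a class of 10 genes, 0 calls do not set Mediator apart from these shares. The log2 fold changes of the 10 Mediator genes lay between -0.14 (MED1) and 0.17 (MED15), with a median of 0.08. The 95% interval lay within ±0.5 for all 10. MED1, which binds nuclear receptors, had a level of 132, 141 and 145 CPM with vehicle and of 125, 129 and 123.4 CPM with TGFβ. These values did not overlap, and the log2 fold change was -0.14 (95% interval -0.30 to 0.011, FDR 0.422). MED14, the backbone of the complex, was above vehicle in every TGFβ culture, at 59.7, 61.8 and 55.7 CPM against 55.1, 52.8 and 52.2 CPM (log2 fold change 0.15, 95% interval -0.015 to 0.31, FDR 0.442). MED15, a tail subunit that contacts SMAD proteins, overlapped between the groups (FDR 0.495). MED17, MED23 and MED26 had log2 fold changes of -0.06, -0.06 and 0.10. MED26 is the subunit that recruits the super elongation complex. The strand setting of the counting is not known, so reads of GTF2H4 and MED26 are uncertain. VARS2 and CTC-429P9.4, which overlap most of their span, held more reads than they did. SKIV2L, RASA1 and TAF1D also held more reads than NELFE, CCNH and MED17, but overlap them only at an end. How many reads lie in those ends is not known.

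The kinase module of Mediator consists of MED12, MED13, cyclin C and CDK8, and it is known to phosphorylate SMAD proteins. MED12, MED13, CCNC and CDK8 had log2 fold changes of 0.02, 0.11, 0.06 and 0.12 (FDR between 0.623 and 0.968). CDK19, the paralog of CDK8 outside the 52 genes, measured 49.6, 47.5 and 47.7 CPM with vehicle and 42.0, 32.3 and 35.2 CPM with TGFβ, without overlap. Its log2 fold change was -0.40 (standard error 0.10), just short of the threshold without a block (FDR 0.0536) and past it with the block (FDR 0.00151). MED13L, the paralog of MED13, had a log2 fold change of 0.28 and was higher with the block (FDR 0.0113, and 0.121 without). Per kilobase with vehicle, Mediator genes ranged from 1.74 ± 0.201 CPM for MED26 to 19.0 ± 0.876 for MED1, with CCNC next at 16.2 ± 0.596 (SD, n = 3).

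POLR2A (ENSG00000181222, chromosome 17 from 7387685 to 7417933) encodes the large subunit of RNAPII, whose tail is phosphorylated during elongation. It was at 327, 296 and 302 CPM with vehicle and at 365, 350 and 315 CPM with TGFβ. The groups overlapped, since TGFβ culture 3 lay below vehicle culture 1, and within culture numbers the log2 ratios were 0.16, 0.25 and 0.06. The log2 fold change of 0.16 (95% interval -0.02 to 0.34) was not called without a block (FDR 0.473) or with it (FDR 0.0832). POLR2B, the second largest subunit, had a log2 fold change of -0.04 (FDR 0.882). Their levels per kilobase with vehicle were 36.9 ± 2.00 CPM for POLR2A and 29.9 ± 1.76 for POLR2B (SD, n = 3).

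The rest of the machinery was followed with a list of 88 further genes of the same complexes and of the enzymes that act on the polymerase tail. All 88 were tested. Without a block, 1 was higher (1.14%) and 0 were lower, with 10 at an unadjusted P under 0.05 and 3 called lower by DESeq2. With the block, 4 were higher (4.55%) and 6 were lower (6.82%). Over all tested genes the shares were 3.11% higher and 1.01% lower without the block, and 8.08% and 3.75% with it. Of all 22747 tested genes, 3107 had an unadjusted P under 0.05, and DESeq2 called 406 lower. The gene called without a block was CTDSP2, a phosphatase of the polymerase tail that is also known to act on SMAD proteins. CTDSP2 measured 171, 149 and 146 CPM with vehicle and 266, 268 and 242 CPM with TGFβ, so its groups were far apart (log2 fold change 0.74, standard error 0.08, FDR 0.00103). The median log2 fold change of the list was 0.01. With the block, TCEA2, a paralog of TCEA1, was higher (log2 fold change 0.27, FDR 0.0414). CDK12, a kinase of serine 2 of the tail, was lower (log2 fold change -0.18, FDR 0.0432), as were EAF1, a partner of the ELL proteins (-0.22, FDR 0.0179), ELOA, an elongation factor (-0.25, FDR 0.00777), and the polymerase subunit POLR2H (-0.21, FDR 0.0284).

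**Figure D4:**
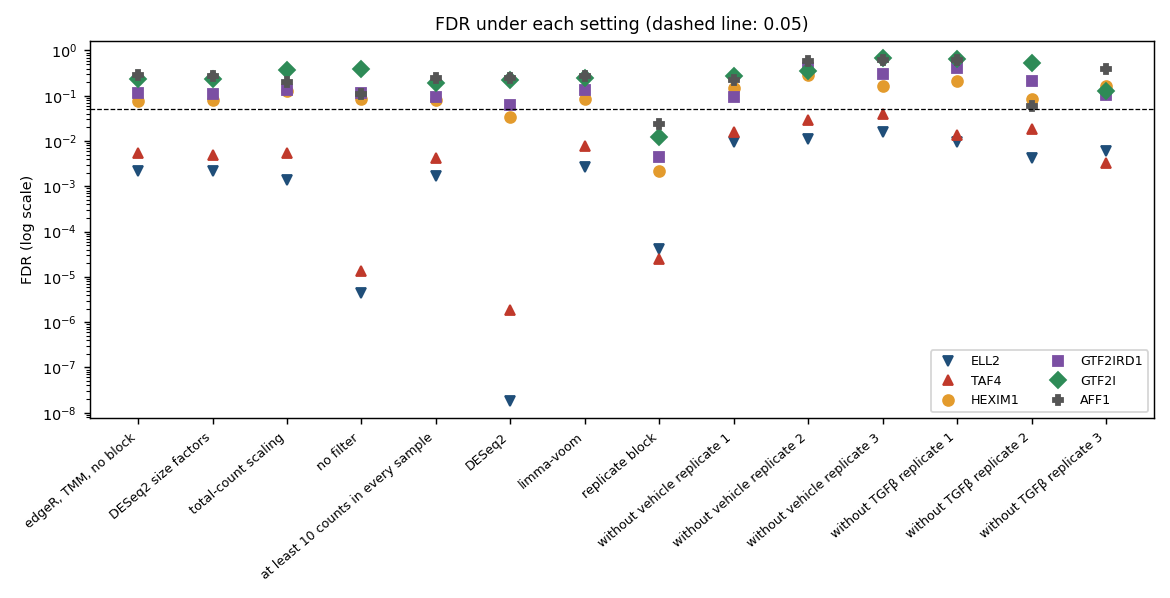
FDR (log scale) of the 6 genes called with the replicate block, under the fit without a block and each of 13 alternatives; the dashed line marks 0.05. ELL2 and TAF4 lie below the line in every column, HEXIM1 lies below it with the block and with DESeq2, and GTF2IRD1, GTF2I and AFF1 lie below it only with the block.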

How the data were processed

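RNA-seq of 6 HepG2 cultures was analysed from 1 deposited table. By the study's methods and the submitters' processing notes, the authors aligned paired 51-base reads to hg19 (TopHat2 2.0.6) and counted them per gene (MAPRseq, HTSeq). The counts that the authors deposited are raw. Their RPKM values, deposited beside the counts, were not used. The deposited gene length (other unit, bases) served for levels per kilobase. For the annotation release, the strand setting and the treatment of reads matching several genes: not given in the sources used here. Groups and culture numbers came from the sample titles.

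In R 4.3.3, genes passing filterByExpr were normalized by TMM and tested with edgeR 4.0.16 (robust quasi-likelihood fit, F test, no replicate block), with Benjamini-Hochberg adjustment over 22747 genes. Standard errors and 95% intervals are those implied by F. Log2 ratios within culture numbers used log2 CPM with a prior count of 2. The steps were tested on simulated counts. Across genes, the deviations from the group means correlated at 0.366, 0.227 and 0.316 between cultures 1, 2 and 3 of the groups and at most at 0.0101 otherwise, and on this ground the number was treated as a pairing. By the labels, cultures 1 of both groups shared lane 1, cultures 2 shared lane 3, and cultures 3 were on lanes 4 and 5. Whether cultures were grown separately is not given in the labels, and P then measures the spread between these samples.

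The members, the list of 88 genes and the tests were chosen with earlier results of these data known. Every member is reported. Values per culture are given for members called with or without the block and for GTF2I, NELFA, SUPT5H, CDK9 and POLR2A, whose products the study assayed or, for CDK9, inhibited. Values per culture of other genes, the paralogs, the neighbors and the HEXIM1 promoter were added after their values were seen. Alternatives were DESeq2 1.42.0, limma-voom (limma 3.58.1), the replicate block, leaving out each culture, scaling by DESeq2's factors or by total counts, and either no filter or a minimum of 10 counts per sample. Windows of 51 bases shared between a gene and its copies were counted in GENCODE transcripts on GRCh37. GTF2I and its copies were not compared this way. Of the genes of the list called with the block, 1 is not reported here.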

Additional observations from a re-analysis of the deposited data

How the results depend on the processing

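ELL2 and TAF4 kept their direction and passed the threshold under all 13 alternatives, with log2 fold changes from -0.63 to -0.53 for ELL2 and from 0.51 to 0.67 for TAF4 (highest FDR 0.0158 and 0.0405, both without vehicle replicate 3). The replicate block moved most counts: 4 members were higher and 2 lower, with 1 higher and 2 lower among the pausing and elongation factors, and 4 higher and 6 lower in the list of 88 genes. DESeq2 called 2 members higher, 1 of them a pausing factor (HEXIM1, FDR 0.0337), and 3 genes of the list lower. The list had 1 lower gene with DESeq2's size factors, with no filter and with at least 10 counts, and 2 with total-count scaling. With single cultures left out the list had 1 to 2 higher genes (2 without TGFβ replicate 3) and 0 to 1 lower (1 without vehicle replicate 1 and 1 without TGFβ replicate 1). Over all tested genes, 707 higher and 230 lower became 1837 and 853 with the replicate block, 1009 and 406 with DESeq2, and between 394 and 778 higher and between 91 and 220 lower with single cultures left out. Calls of general factors and Mediator genes did not move under any alternative. GTF2I, GTF2IRD1 and AFF1 passed only with the block, and with single cultures left out their lowest FDR was 0.126, 0.0956 and 0.0604. Values near 0 changed sign without being called: with total-count scaling SUPT5H was at -0.014 and CDK9 at -0.0090, and with single cultures left out NELFA ranged from -0.034 to 0.12, SUPT5H from -0.0038 to 0.063 and CDK9 from -0.038 to 0.064. The median log2 fold change of all genes was -0.047 with total-count scaling. Among the members, GTF2IRD2 and GTF2H2 had the fewest reads and the widest intervals. The cause of these shifts was not tested.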
